A study of Mus musculus with 2 samples.

Results

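C1q-positive Mrc1-low macrophages are described here in RM-1 tumours, grafts of a mouse prostate cancer line grown under the skin of wild-type C57BL/6 mice. A cell was taken as a member when it had at least 3 UMIs (unique molecular identifiers, each counting 1 captured transcript) of Lyz2, at least 3 UMIs over C1qa, C1qb and C1qc, fewer than 2 UMIs of Mrc1 and fewer than 2 UMIs of Cxcl9 and Cxcl10 together. It also needed at least 1 UMI over Csf1r, Itgam and Adgre1, no UMI of Cd3d, Cd3e or Cd79a, and at most 1 UMI of the keratins Krt8 and Krt18. These limits were met by 54 cells, 28 from the RP-6306 library and 26 from the vehicle library, out of 32976 cells that passed the limits on depth and mitochondrial reads (15868 and 17108). The RP-6306 tumour had been exposed for 10 days to RP-6306, which blocks the cell cycle kinase PKMYT1, and the vehicle tumour to its solvent alone. From each, leukocytes sorted for CD45 had been recombined with tumour cells at 3 to 1, and a droplet library that reads transcripts from the 3′ end was made (SeekOne DD). A pair of tumour-bearing mice is mentioned by the submitters, and how many gave each library is not said. There was 1 library per group, so every difference below is between 2 libraries, without a replicate check or a test, and every interval covers counting error only.

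C1q is the recognition molecule of the classical complement pathway. Unlike most complement proteins it is made by macrophages themselves, where it binds immune complexes and dying cells and helps their uptake. In tumours, monocytes that arrive through the chemokine receptor CCR2 mature in place, and as they do they lose Ly6C, gain C1q and MHC class II, and may gain the mannose receptor encoded by Mrc1 or the interferon-induced chemokines encoded by Cxcl9 and Cxcl10. The limits above leave out cells with at least 2 UMIs of Mrc1, or of Cxcl9 and Cxcl10 together. Whether such cells are later states than the members was not tested here. Lyz2 encodes lysozyme, an antibacterial enzyme of myeloid cells, and Mmp12 encodes the macrophage elastase, a protease that cuts elastin and other matrix proteins.

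The 3 C1q genes lie side by side on the minus strand of chromosome 4 (GRCm38, the assembly of mm10). In the GENCODE annotation C1qa spans 136895917 to 136898803, C1qc 136889804 to 136893065 and C1qb 136880129 to 136886187. Mmp12 lies on the plus strand of chromosome 9 from 7344381 to 7369499. Because the members were chosen on the C1q sum and are further described by Mmp12, the 250 bases before the RefSeq starts of C1qb and before both RefSeq starts of Mmp12 are printed here (GRCm38.p6), 5′ to 3′ on the strand of the gene. The annotations place the starts differently: the first Mmp12 window ends just inside the GENCODE span given above, and the second lies wholly within it. Capitals mark matches, on either strand, to GAGGAAG, a purine-rich motif of the ETS type, and to TGANTCA, a motif of the AP-1 type.
C1qb (chr4:136886201-136886450, minus strand): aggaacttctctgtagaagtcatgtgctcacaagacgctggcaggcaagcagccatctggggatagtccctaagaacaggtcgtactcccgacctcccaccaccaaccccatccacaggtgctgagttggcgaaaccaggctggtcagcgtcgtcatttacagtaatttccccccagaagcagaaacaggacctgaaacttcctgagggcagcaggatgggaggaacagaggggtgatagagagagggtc
Mmp12, first start (chr9:7344147-7344396, plus strand): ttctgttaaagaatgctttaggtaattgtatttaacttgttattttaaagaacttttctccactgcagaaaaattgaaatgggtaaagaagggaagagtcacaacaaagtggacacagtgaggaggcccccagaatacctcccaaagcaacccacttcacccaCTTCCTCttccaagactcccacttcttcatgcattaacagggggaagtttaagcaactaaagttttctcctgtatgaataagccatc
Mmp12, second start (chr9:7347124-7347373, plus strand): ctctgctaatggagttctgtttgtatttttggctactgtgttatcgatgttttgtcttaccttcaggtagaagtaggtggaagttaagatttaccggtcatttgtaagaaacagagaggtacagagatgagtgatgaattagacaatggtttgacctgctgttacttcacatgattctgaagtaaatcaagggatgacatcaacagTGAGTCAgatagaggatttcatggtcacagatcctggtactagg
GAGGAAG was found once, as its reverse complement, before the first Mmp12 start, and TGANTCA once before the second Mmp12 start. The window of C1qb held neither. Of 32817 such windows, 10.6% held GAGGAAG and 6.75% held TGANTCA. No printed match overlaps another, and a match of letters does not show that a factor binds there.

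The genes that chose the cells are given as a description only. The C1q sum per member was 3 at the lowest, 15 at the median and 49 UMIs at the highest in the RP-6306 library, against 3, 10.5 and 29 UMIs in the vehicle library. Over the summed UMIs, C1qa was at 631 CPM (UMIs per 1000000 UMIs of the cells summed) in RP-6306 members and 401 CPM in vehicle members, C1qb at 1252 and 777 CPM, and C1qc at 429.8 and 453 CPM. C1qb had a UMI in all 28 and all 26 members, C1qa in 26 of 28 and 19 of 26, and C1qc in 21 of 28 and 21 of 26. In T cells, which do not make C1q, C1qb had a UMI in 0.683% of RP-6306 and 0.42% of vehicle cells, at median depths of 2845 and 3325 UMIs. Lyz2 was at 444.97, 4599 and 11495 CPM of the cell (lowest, median and highest member) in the RP-6306 library and at 413, 2574 and 9091 in the vehicle library. Of the receptors, Csf1r, the receptor of the macrophage growth factor CSF1, had a UMI in 26 of 28 and 24 of 26 members, and Itgam, the integrin CD11b, in 25 and 24. Adgre1, which encodes the macrophage marker F4/80, had only 7 UMIs over the RP-6306 members and 3 over the vehicle members.

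**Figure D1:**
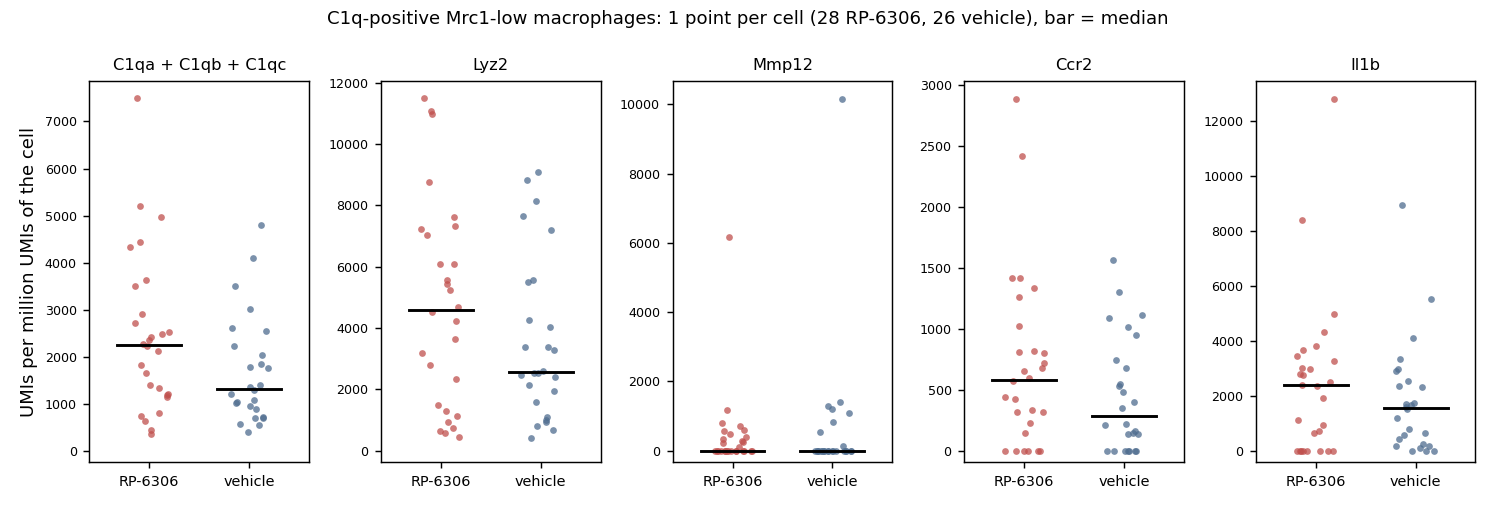
CPM of the cell (y axes) for the C1q sum, Lyz2, Mmp12, Ccr2 and Il1b in each of the 28 RP-6306 (left) and 26 vehicle (right) C1q-positive Mrc1-low macrophages, 1 point per cell with the median as a bar. The C1q and Lyz2 panels show genes used to choose the cells. The median of Mmp12 is 0 in each library, and 1 cell in each, at 6161 and 10161, stands far above the rest.

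Mmp12, which was not used to choose the cells, was not a general marker of them. It had a UMI in 13 of 28 RP-6306 members (46.4%, exact Clopper-Pearson 95% interval 27.5 to 66.1) and in 8 of 26 vehicle members (30.8%, 14.3 to 51.8). In T cells the shares were 0.935% and 0.966%. The summed level was 491 CPM in RP-6306 members and 597 CPM in vehicle members, and a single cell held 51.4% and 48.3% of those UMIs. The log2 ratio of RP-6306 over vehicle was -0.28 (-0.68 to 0.11), and 0.90 among members with at least 6 C1q UMIs. The other C1q-positive groups had Mmp12 in more of their cells: 47 of 84 RP-6306 and 27 of 40 vehicle Mrc1-high cells, and 26 of 46 and 19 of 33 cells with Cxcl9 or Cxcl10. With each cell thinned to 2000 UMIs, 26.9% of RP-6306 members and 26.9% of vehicle members kept a UMI, against 29.3% and 47.5% of the Mrc1-high cells and 0.649% and 0.714% of T cells. This left out 2 RP-6306 members and 2 RP-6306 Mrc1-high cells that were too shallow.

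Markers of other lineages were at or near 0, apart from NK cell markers in 1 vehicle member. Neutrophil markers summed to 6 UMIs in RP-6306 and 3 in vehicle members, and 4 of the 6 markers were at 0 in each library. Dendritic cell markers summed to 5 and 3 UMIs, with Flt3, Zbtb46, Xcr1 and Cd209a at 0 in both libraries. T cell markers summed to 2 and 3 UMIs, B cell markers to 3 and 6, tumour markers to 5 and 2, and fibroblast markers to 1 and 4. Of these, Cd3d, Cd3e and Cd79a were held at 0, and Krt8 and Krt18 at 1 at most, by the limits themselves. The 4 NK cell markers summed to 1 UMI in RP-6306 members and to 19 UMIs in 2 vehicle members. They reached 1505 CPM of the cell in 1 vehicle member, and whether that barcode also held an NK cell was not tested. Platelet markers summed to 0 and 1 UMIs and red cell markers to 0 and 0. Macrophage markers summed to 1953 and 1796 CPM, against 3281 and 2809 CPM in the Mrc1-high cells. These sums include genes that chose the cells of both groups, so they are a description only. In members these were C1qc (429.8 and 453 CPM), Csf1r (499.9 and 483.7 CPM) and Adgre1 (32.7 and 15.4 CPM). Monocyte markers summed to 2392 and 1621 CPM in members, against 975 and 429 CPM in the Mrc1-high cells.

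The members were a minority of the C1q-positive macrophages. They made up 28 of 158 such cells in the RP-6306 library (17.7%, 12.1 to 24.6) and 26 of 99 in the vehicle library (26.3%, 17.9 to 36.1). The Mrc1-high cells made up 84 (53.2%, 45.1 to 61.1) and 40 (40.4%, 30.7 to 50.7), and the cells with Cxcl9 or Cxcl10 46 (29.1%) and 33 (33.3%). Of all gated myeloid cells, 6.65% (4.46 to 9.47) in the RP-6306 library and 6.74% (4.45 to 9.71) in the vehicle library were members. The counting intervals of the 2 libraries overlap for each share of the members. The share of C1q-positive cells among the gated myeloid cells was 37.5% (32.9 to 42.3) in the RP-6306 library and 25.6% (21.4 to 30.3) in the vehicle library. The C1q limit is a fixed number of UMIs. Median depth was higher in RP-6306 than in vehicle for Mrc1-high cells (12462.5 against 10551.5 UMIs), cells with Cxcl9 or Cxcl10 (14149 against 11003) and C1q-low monocytes (6706 against 5641.5), but not for members. The part of depth in this share was not tested. Cell numbers here follow a sort and a mixing step, so they describe the libraries and not the tumours.

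The limits that separate members from neighbours are crossed by few UMIs. In the RP-6306 library 8 members had 1 UMI of Mrc1 and 7 cells just outside had 2, and in the vehicle library the numbers were 10 and 3. A C1q sum of exactly 3 was found in 2 and 2 members, and a sum of 2 kept 2 and 5 cells out. Members had 7244 UMIs at the median in the RP-6306 library (903 to 15091) and 7261.5 in the vehicle library (3754 to 14720), while Mrc1-high cells had 12462.5 and 10551.5. When the Mrc1-high cells that were deep enough were thinned to the median depth of the members, 7 of 71 RP-6306 cells (9.86%) and 1 of 31 vehicle cells (3.23%) fell below 2 UMIs of Mrc1. The part of the lower depth in the membership of single cells beyond these values was not tested.

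The members carried more transcripts of most monocyte genes measured, and fewer of most scavenger, chemokine and cell cycle genes measured, than the Mrc1-high macrophages of the same library. Of 2251 genes with at least 50 UMIs over these cells, 15 (0.666%) were at least 2-fold higher and 37 (1.64%) at least 2-fold lower in members in both libraries, 52 (2.31%) in all. The medians over all these genes were 0.07 in the RP-6306 and 0.11 in the vehicle library on the log2 scale (CPM + 1, members over Mrc1-high cells), with 923 genes higher and 501 lower in both libraries. The groups were separated by Mrc1 itself and differ in depth, so these counts describe the groups and test nothing.

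Monocyte genes were higher in members in both libraries for 12 of the 13 genes measured (923 of 2251 over all genes), 4 of them at least 2-fold, with medians of 0.86 and 1.05. Ccr2, the receptor through which monocytes enter tumours, was at 701 CPM in RP-6306 members and 385 CPM in RP-6306 Mrc1-high cells, and at 499 and 205 CPM in the vehicle library. Plac8, a small cysteine-rich protein abundant in Ly6C-high monocytes, was at 491 against 47.3 CPM, and at 448 against 32.3 CPM. S100a4, a calcium-binding protein of motile myeloid cells, was at 953 against 446 CPM in the RP-6306 library and 674 against 211 CPM in the vehicle library. Of the same list, Itga4, the alpha chain of the integrin VLA-4, had log2 ratios of 0.89 and 1.05, F10, coagulation factor X, 1.03 and 1.15, and Ly6e 0.82 and 1.22. Outside it, Samhd1, a nucleotide hydrolase that restricts retroviruses, was at 579 against 229 CPM and at 484 against 170.2 CPM, and Cytip, which regulates leukocyte adhesion, had log2 ratios of 1.37 and 1.03. At 2000 UMIs per cell, Ccr2 had a UMI in 65.4% of RP-6306 and 57.7% of vehicle members, against 42.7% and 27.5% of Mrc1-high cells and 1.82% and 3.70% of T cells.

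The next counts stand against the same 923 of 2251 genes higher in both libraries. Il1b, the cytokine interleukin 1 beta, followed the same direction, at 2794 CPM in members and 1522 CPM in Mrc1-high cells of the RP-6306 library, and at 1929 and 629 CPM in the vehicle library. The inflammatory cytokine and inflammasome list was higher in members in both libraries for 8 of 10 genes and lower in both for 0, with medians of 0.47 and 0.59. Ptgs2, the inducible cyclooxygenase, was at 911 against 408 CPM and at 509 against 222 CPM. Of 6 measured type I interferon-stimulated genes, 5 were higher in both libraries and 2 at least 2-fold (medians 0.62 and 1.01). MHC class II presentation genes were higher in both libraries for 7 of 8, none of them 2-fold, with medians of 0.28 and 0.56.

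Scavenger and alternative activation genes were lower in members in both libraries for 9 of 11 genes (501 of 2251 over all genes), 6 of them at least 2-fold, with medians of -1.37 and -1.59. Chil3, a gene of this list, is not among the 11 because its vehicle UMIs (41 and 8) fell under the limit. It went the other way, at 304 CPM in members and 33.9 CPM in Mrc1-high cells of the RP-6306 library, and at 211 and 17.2 CPM in the vehicle library. Selenop, a selenium carrier, was at 60.7 CPM in members and 663 CPM in Mrc1-high cells of the RP-6306 library, and at 118 and 358 CPM in the vehicle library. Maf, a transcription factor of resident and alternatively activated macrophages, was at 70.1 against 287 CPM and at 61.7 against 308 CPM. Pf4, the platelet factor 4 chemokine that macrophages also make, was at 88.8 against 491 CPM and at 30.9 against 414 CPM, with 68.4% and 66.7% of its UMIs among members in a single cell. Platelet markers moved with Pf4, at 0 and 1 UMIs in members against 130 and 54 UMIs in 15 and 7 Mrc1-high cells (116 CPM in each library, with Gp9 at 0), and their part in the Pf4 values was not tested. Apoe, the lipid carrier of lipid-associated macrophages, was at 159 against 1122 CPM (log2 -2.81, interval -3.36 to -2.33) and at 123 against 846 CPM (-2.77, -3.44 to -2.18). Fabp5, a fatty acid carrier, had log2 ratios of -1.59 and -2.07, and Itga9, an integrin chain, -2.86 and -2.23. Mmp13, a collagenase, had 0 UMIs in RP-6306 members and 2 in vehicle members, against 181 and 72 in the Mrc1-high cells.

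Chemokine genes were mostly lower in members. Ccl12, a ligand of CCR2, was at 56.1 CPM in members and 849.8 CPM in Mrc1-high cells of the RP-6306 library, and at 41.2 and 974 CPM in the vehicle library. Over the chemokine list 9 of 14 genes were lower in both libraries, against the 501 of 2251 over all genes, 4 at least 2-fold, with medians of -0.91 and -0.76. The 2 higher in both (923 of 2251 over all genes) were Cxcl3, at 533 against 235 CPM and 149 against 118 CPM, and Ccl3, which differed less. Cxcl2 was higher in members of the RP-6306 library (3938 against 2732 CPM) and lower in those of the vehicle library (2192 against 2434 CPM). Mki67, a marker of cycling cells, had 9 and 3 UMIs in members and 223 and 65 in Mrc1-high cells, with log2 ratios of -2.21 (-3.39 to -1.29) and -3.10 (-5.50 to -1.57). Of 5 measured cell cycle genes 4 were lower in members in both libraries, 3 at least 2-fold (medians -1.77 and -2.12). The median cell differed less. The cell cycle list summed to 431 CPM in the median RP-6306 member and 567 CPM in the median Mrc1-high cell, and to 351 and 494 CPM in the vehicle library. The highest Mrc1-high cells were at 8322 and 7577 CPM, the highest members at 4718 and 2664 CPM.

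**Figure D2:**
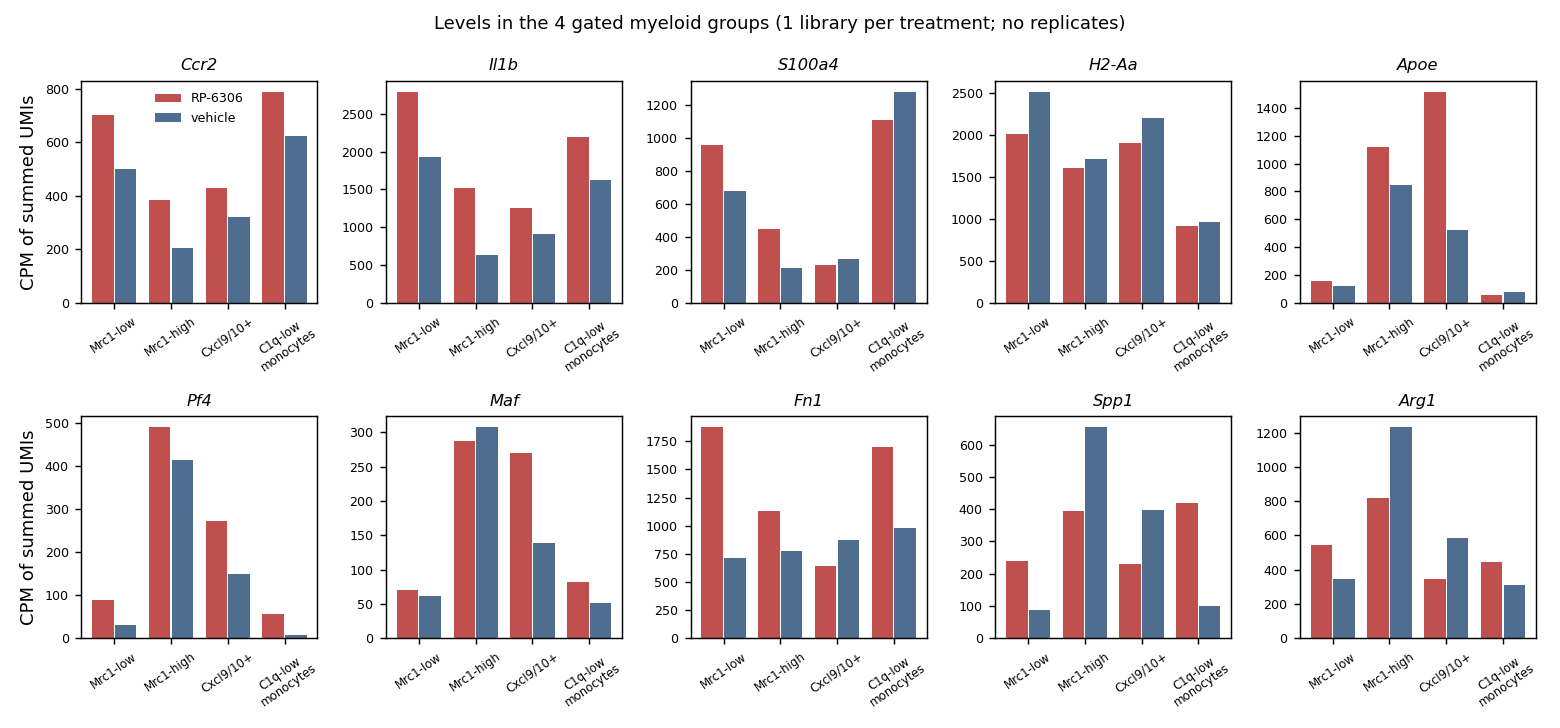
Summed level in CPM (y axes) of 10 genes in the Mrc1-low members, the Mrc1-high cells, the cells with Cxcl9 or Cxcl10, and C1q-low monocytes, with the RP-6306 library left and the vehicle library right in each pair and no error bars because each bar is 1 library. In members Ccr2, Il1b and S100a4 lie above both other C1q-positive groups, Apoe, Pf4 and Maf lie below them, and Spp1 and Arg1 are higher in RP-6306 than in vehicle for members and monocytes only. The monocytes were chosen on Ly6c2 or Ccr2, so their Ccr2 bars are no comparison.

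Against the C1q-positive cells with Cxcl9 or Cxcl10, members again had higher levels of most monocyte genes and lower levels of Apoe, Maf and Itga9. Of 2043 genes, 15 (0.734%) were at least 2-fold higher and 23 (1.13%) at least 2-fold lower in members in both libraries, 38 (1.86%) in all. In both libraries 755 genes were higher and 492 lower, with medians of 0.06 and 0.07. Monocyte genes were higher in both for 10 of 13 (4 at least 2-fold, medians 1.44 and 0.56). S100a4 was at 226 and 265 CPM in the cells with Cxcl9 or Cxcl10, so that the log2 ratio of members was 2.07 and 1.34. Arhgap26, a regulator of small GTPases, had log2 ratios of 1.76 and 1.79, Anxa2, a membrane-binding annexin, 1.24 and 1.24, and Alcam, an adhesion molecule, 1.45 and 1.19. Il1b had 1.15 and 1.08. Apoe was lower, with log2 ratios of -3.25 (-3.79 to -2.76) and -2.08 (-2.76 to -1.47), as were Itga9 (-3.14 and -1.83), Maf (-1.93 and -1.15) and Aoah, an enzyme that inactivates endotoxin (-1.24 and -1.58). The interferon-gamma list, which also holds the receptor genes Ifngr1 and Ifngr2, had medians of -0.07 and -0.55. The compared cells were set apart by Cxcl9 and Cxcl10, themselves targets of interferon gamma.

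Against C1q-low monocytes that had Ly6c2 or Ccr2, members had more MHC class II and fewer early monocyte transcripts. Of 4347 genes, 17 (0.391%) were at least 2-fold higher and 48 (1.1%) at least 2-fold lower in members in both libraries, 65 (1.5%) in all. In both libraries 927 genes were higher and 1688 lower, with medians of -0.07 and -0.12. MHC class II genes were higher in both libraries for 7 of 8, 2 of them at least 2-fold, with medians of 0.62 and 1.13. H2-Aa, a class II alpha chain, was at 2004 CPM in members and 917 CPM in monocytes of the RP-6306 library (log2 1.13, 0.97 to 1.29), and at 2511 and 958 CPM in the vehicle library (1.39, 1.24 to 1.54). Cd74, the invariant chain that escorts class II molecules, had log2 ratios of 0.98 and 1.11, and Aif1, a calcium-binding protein gained as monocytes mature, 1.20 and 1.98.

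Of 16 measured monocyte genes 15 were lower in members than in monocytes in both libraries (1688 of 4347 over all genes), 4 at least 2-fold, and Fn1 was the exception in the RP-6306 library, at 1878 against 1697 CPM. Hp, haptoglobin, was at 79.4 against 211 CPM and at 30.9 against 267 CPM, and Ifitm6 had log2 ratios of -2.16 and -2.04. S100a8, a calcium-binding protein of neutrophils and young monocytes, had 3 UMIs in RP-6306 members and 0 in vehicle members, against 151 and 76 in monocytes. The monocyte group was itself chosen on Ly6c2 or Ccr2, so these 2 genes were left out of this comparison.

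Within the members, RP-6306 cells had more transcripts of fibronectin, of the chemokine gene Ccl2 and of most lipid-associated genes measured, and fewer of most genes of the MHC class II and interferon-gamma lists, than vehicle cells. Of 1502 genes with at least 50 UMIs over both libraries, 52 (3.46%) were at least 2-fold higher and 12 (0.799%) at least 2-fold lower in the RP-6306 library, 64 (4.26%) in all. The median over all 1502 genes was 0.12 on the log2 scale, with 964 higher and 538 lower. Scaling by the median of gene ratios in place of total UMIs lowers every ratio by about 0.12, and 34 genes are then at least 2-fold higher and 22 at least 2-fold lower, so list medians are best read against 0.12. List counts stand against the 964 higher and 538 lower of 1502 genes.

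**Figure D3:**
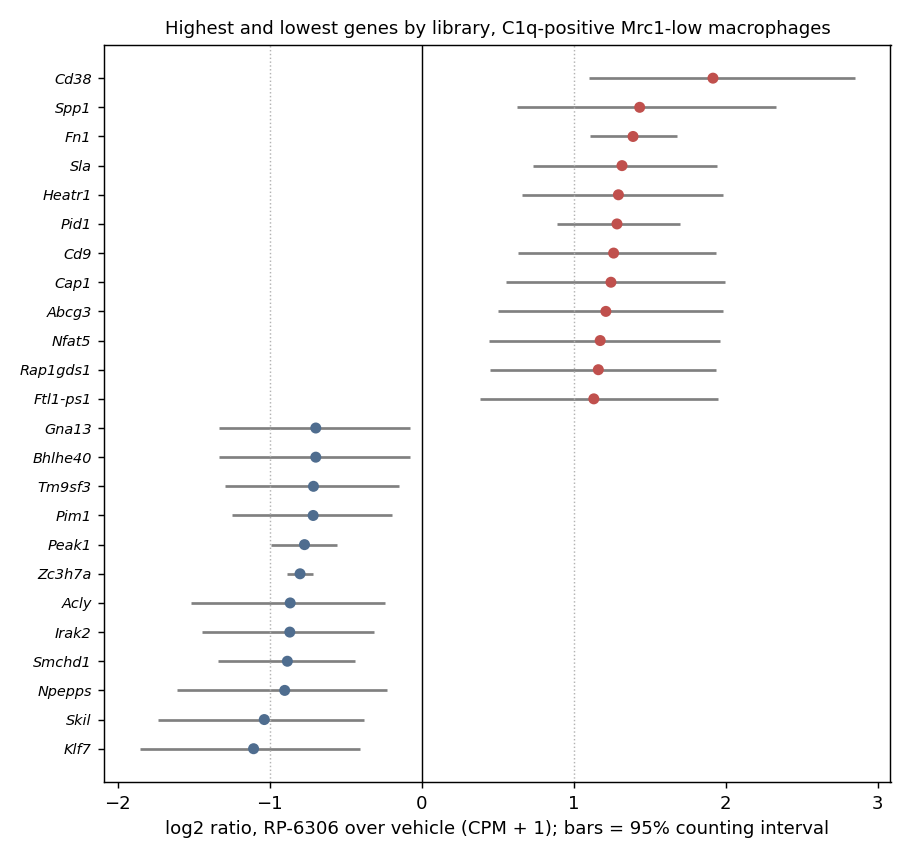
Log2 ratio of RP-6306 over vehicle (x axis, CPM + 1) in the 54 members for the 12 highest and 12 lowest genes under a fixed rule, with 95% counting intervals as bars and 2-fold as dotted lines. The intervals of all 24 genes lie on 1 side of 0, and 12 genes lie past 2-fold on the high side and 2, Klf7 and Skil, on the low side.

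Cd38, an enzyme that consumes NAD and is induced in activated macrophages, was the highest of the genes that the rule names. It was at 294 CPM in RP-6306 members (63 UMIs in 17 cells) and 77.2 CPM in vehicle members (15 UMIs in 10 cells), with a log2 ratio of 1.92 (1.10 to 2.85). Fn1, fibronectin, a matrix protein that monocytes and macrophages secrete (chromosome 1, 71585520 to 71653200, minus strand), was at 1878 and 715 CPM (1.39, 1.11 to 1.68), with UMIs in 20 of 28 and 16 of 26 members. Spp1, osteopontin, was at 238 and 87.5 CPM (1.44, 0.63 to 2.33), and a single cell held 47.1% of its 17 vehicle UMIs. Pid1, which modulates insulin signalling, was at 892 and 365 CPM (1.29, 0.89 to 1.70). Sla, an adaptor that dampens receptor signalling, was at 425 and 169.8 CPM (1.32), and Cd9, a tetraspanin of lipid-associated macrophages, at 359.7 and 149 CPM (1.26, 0.64 to 1.94). The others on the high side were Heatr1, Cap1, Abcg3, Nfat5, Rap1gds1 and Ftl1-ps1, with log2 ratios of 1.13 to 1.30. Ftl1-ps1 is a pseudogene of the ferritin light chain gene Ftl1, so its UMIs may be shared with that gene (Ftl1 itself 0.33).

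On the low side, Klf7, a Krüppel-like transcription factor, was at 121 CPM in RP-6306 and 262 CPM in vehicle members (-1.10, -1.85 to -0.40), and 13 of its 26 RP-6306 UMIs were in a single cell. Skil, an inhibitor of TGF-beta signalling, was at 140.1 and 288 CPM (-1.03, -1.73 to -0.38). Zc3h7a, a zinc finger protein, was at 8876 and 15446 CPM (-0.80, -0.88 to -0.72), with UMIs in 27 of 28 and 26 of 26 members. Its level was also lower in RP-6306 than in vehicle in the other 3 groups (-0.49 in Mrc1-high cells, -0.57 in cells with Cxcl9 or Cxcl10 and -0.51 in monocytes), as was that of Peak1, a pseudokinase (-0.77 in members, and -0.43, -0.61 and -0.48 there). Zc3h7a had an unusually high level in all 4 groups (8074 to 15898 CPM), and whether UMIs of other transcripts are counted at Zc3h7a or Peak1 was not tested. Irak2, a kinase of interleukin 1 and Toll-like receptor signalling, had a log2 ratio of -0.87 (-1.44 to -0.31), Acly, the enzyme that makes cytosolic acetyl-CoA, -0.86, and Bhlhe40, a transcription factor of proliferating and inflammatory macrophages, -0.70. The remaining low genes were Npepps, Smchd1, Pim1, Tm9sf3 and Gna13. When members with any Mrc1 UMI were left out, Npepps was at 0.26 and Pim1 at 0.06, and with cells thinned to 2000 UMIs Gna13 was at 0.10.

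Chemokine genes spanned a wide range. Of 9 measured, 7 were higher in RP-6306 members (964 of 1502 over all genes), 3 of them at least 2-fold, and 1 was at least 2-fold lower, with a median of 0.31. Ccl2, the ligand that draws CCR2-bearing monocytes (chromosome 11, 82035571 to 82037453), was at 579 CPM in RP-6306 members (124 UMIs in 13 cells) and 185 CPM in vehicle members (36 UMIs in 12 cells), a log2 ratio of 1.64 (1.10 to 2.22). A single cell held 20.2% of the RP-6306 and 41.7% of the vehicle UMIs. Ccl3, a chemokine for monocytes and T cells, was at 280.3 and 97.8 CPM (1.51), with over 20% of its RP-6306 UMIs in 1 cell. Cxcl2, a chemokine for neutrophils, was at 3938 and 2192 CPM (0.85, 0.68 to 1.02). Cxcl3 was at 533 and 149 CPM, but 90.4% of its RP-6306 UMIs came from 1 cell. Ccl24, a chemokine for eosinophils made by alternatively activated macrophages, was at 79.4 and 515 CPM (-2.68, -3.53 to -1.95), with UMIs in 5 and 6 cells and 64.7% and 51.0% of them in 1 cell of each library. Ccl24 was lower and Ccl2 higher in RP-6306 in the other 3 groups too (Ccl24 at -2.00, -2.35 and -0.54, Ccl2 at 0.58, 2.09 and 1.07, in the order Mrc1-high, Cxcl9 or Cxcl10, monocytes).

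The list counts in this paragraph stand against 964 of 1502 genes higher in RP-6306 members. Of 8 measured genes of lipid handling, 7 were higher in RP-6306 members and 3 of these at least 2-fold, with a median of 0.35. They were Spp1, Cd9 and Abca1, a cholesterol exporter that was at 178 CPM in RP-6306 and 66.9 CPM in vehicle members (38 and 13 UMIs). Apoe was at 159 and 123 CPM (0.36, -0.43 to 1.18). Its ratio was -0.70 with cells thinned to 2000 UMIs, -0.06 with at least 2000 UMIs per cell and 1.41 with the mean over cells. The 5 measured genes of the arginine, tryptophan and adenosine list, which also holds the prostaglandin enzyme gene Ptgs2, were all higher, none 2-fold, with a median of 0.67. Among them Arg1, the arginase of suppressive myeloid cells, was at 547 and 345 CPM (0.66, 0.22 to 1.12), in 15 of 28 and 6 of 26 members, with 40.2% and 31.3% of UMIs in 1 cell. Arg1 was at 2.13 among members with at least 6 C1q UMIs. The summed level of this list per member was 0, 1356 and 9493 CPM (lowest, median, highest) in the RP-6306 library and 0, 1172 and 7258 in the vehicle library, so the cells of both libraries overlapped over nearly the whole range. Fc and phagocytic receptors were higher for 10 of 11, none 2-fold (median 0.38), and the scavenger list for 6 of 7 (median 0.50), with F13a1, the coagulation factor XIII A chain, at 252 and 103 CPM (48.1% of the RP-6306 UMIs in 1 cell) and Ccl24 as the lower member.

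The list counts in this paragraph stand against 964 of 1502 genes higher in RP-6306 members, and those of the inflammatory and immediate early lists lie near that share. Inflammatory cytokine and inflammasome genes were higher for 7 of 10 (median 0.32), none 2-fold, with Il1b at 2794 CPM in RP-6306 and 1929 CPM in vehicle members (0.53, 0.35 to 0.72). Ptgs2 was at 911 and 509 CPM, and Il1rn, the interleukin 1 receptor antagonist, at 495 and 288 CPM. Monocyte genes were higher for 11 of 13, with a median of 0.23. Besides Fn1, the large proteoglycan gene Vcan was past 2-fold, at 1065 and 509 CPM (1.06, 0.72 to 1.42), and at 0.28 among members with at least 6 C1q UMIs. Ccr2 was at 701 and 499 CPM (0.49, 0.11 to 0.87), with a UMI in 22 of 28 and 19 of 26 members (T cells 2.52% and 5.42%). Immediate early and dissociation stress genes had a median of 0.32, with 11 of 16 higher and Egr1 at 285 and 82.3 CPM (1.78), and their summed level was 11913 and 9529 CPM. The part of tissue dissociation in the inflammatory genes was not tested.

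**Figure D4:**
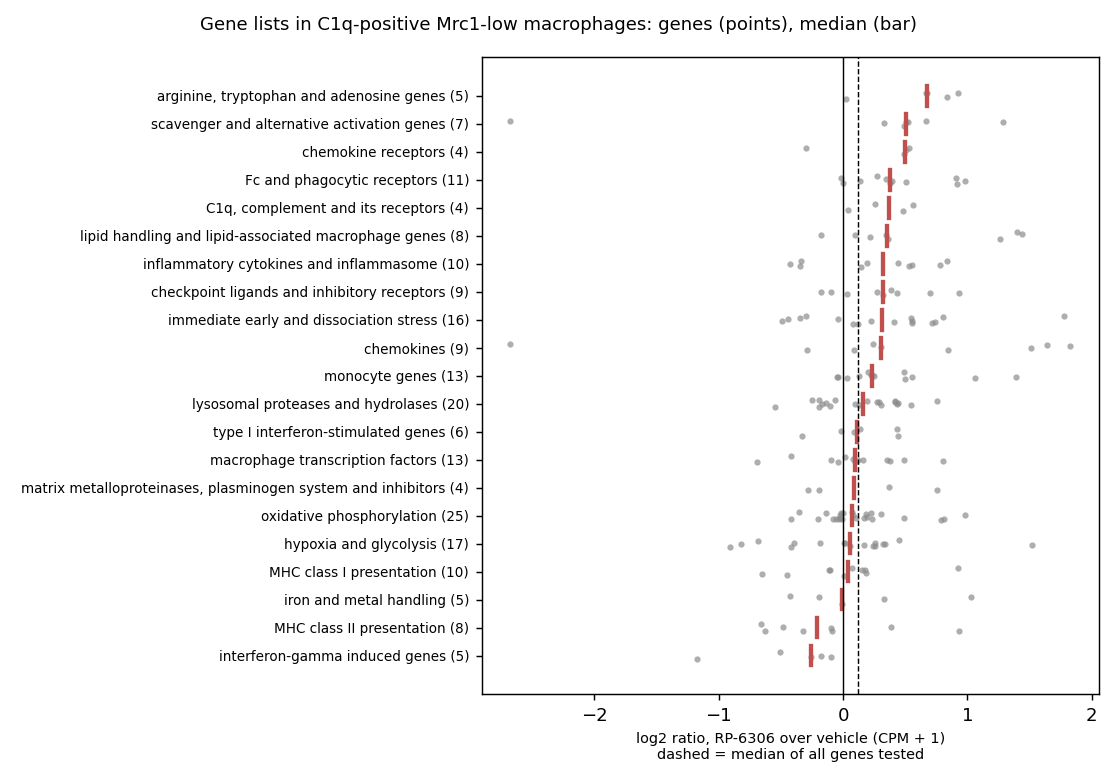
Log2 ratio of RP-6306 over vehicle (x axis, CPM + 1) in the members for each gene with at least 50 UMIs (points) in lists with 4 or more such genes (number of genes in brackets), with the list median as a bar. The medians run from 0.67 for arginine, tryptophan and adenosine genes to -0.26 for the interferon-gamma list, which includes receptor genes, around a median of 0.12 over all genes (dashed).

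MHC class II genes and the genes of the interferon-gamma list stood on the low side. Of 8 measured class II genes 6 were lower in RP-6306 members (538 of 1502 over all genes), none 2-fold, with a median of -0.21. H2-Ab1, a class II beta chain, was at 990.4 CPM in RP-6306 and 1569 CPM in vehicle members (-0.66, -0.92 to -0.41), H2-Eb1 at 1490.3 and 2089 CPM (-0.49, -0.70 to -0.27), H2-Aa at 2004 and 2511 CPM (-0.33, -0.52 to -0.14), and H2-DMb1, a chain of the peptide-loading chaperone, at 299 and 463 CPM. Cd74 differed little, at 6989 and 7461 CPM (-0.09, -0.20 to 0.01). Cd80 and Cd86, ligands that costimulate T cells and the 2 higher members of the list, were at 542 and 283 CPM and at 883 and 674 CPM. When members with any Mrc1 UMI were left out, the class II median was -0.70 and H2-Ab1 was at -1.29.

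All 5 measured genes of the interferon-gamma list were lower in RP-6306 members (538 of 1502 over all genes), with a median of -0.26. Ifngr1 and Ifngr2, which encode chains of the interferon-gamma receptor, are among the 5, so the count is not one of induced genes alone. Gbp2, an interferon-induced GTPase, was at 79.4 and 180.1 CPM (-1.17, -2.11 to -0.31), with 17 and 35 UMIs and 35.3% and 42.9% of them in 1 cell. Ifngr1, the ligand-binding receptor chain, was at 304 and 432 CPM, Irf1 at 164 and 195.5 CPM, and Cd274, which encodes PD-L1, at 164 and 175 CPM (-0.10, -0.82 to 0.63). Type I interferon-stimulated genes had a median of 0.11 and MHC class I genes 0.04, both near the median of all genes. Hypoxia and glycolysis genes (0.06, 11 of 17 higher) and oxidative phosphorylation genes (0.07, 14 of 25 higher) also lay near it. Scaling by gene ratios, which lowers all genes alike, puts these 4 medians at -0.01, -0.08, -0.07 and -0.05, so their sign carries no direction. Within the hypoxia list, Hilpda, which slows the breakdown of stored fat, was at 341 and 118 CPM (1.52), while Slc2a1, the glucose transporter GLUT1, was at 98.1 and 185 CPM (-0.91).

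Pkmyt1, which encodes the target of RP-6306, had 1 UMI in RP-6306 members and 0 in vehicle members, and Wee1, the related kinase, had 0 and 0. The compound acts on the protein, so these counts do not check the labels. Of 34 cell cycle genes, 1 had 50 UMIs, and the summed level of all was 827 CPM in RP-6306 and 453 CPM in vehicle members, with 37.3% of the RP-6306 UMIs in 1 cell.

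The members differed widely among themselves in MHC class II. The UMIs of H2-Aa, H2-Ab1, H2-Eb1 and Cd74 together ran from 116 through a median of 8672 to 29045 CPM in RP-6306 members, and from 522 through 13372 to 28602 in vehicle members. Across the 54 cells H2-Ab1 followed H2-Aa (Spearman correlation 0.90), Cd74 (0.87) and H2-Eb1 (0.81) most closely of the 1502 genes, and its lowest values over both libraries were with Ccl2 (-0.54), F13a1 (-0.44) and Fn1 (-0.44). Within RP-6306 members these were -0.64, -0.66 and -0.38, and within vehicle members -0.36, -0.22 and -0.20, so the order rests in part on the pooling of libraries that differ in these genes. These are descriptions over cells of 2 libraries that share library and depth, with many counts at 0. Fn1, Vcan and F13a1 were then summed, a choice made after their values were seen, with Fn1 and F13a1 taken for running against H2-Ab1 and all 3 known to be higher in the RP-6306 library. What follows therefore restates that choice and supports nothing. Their sum ran from 0 through 2569 to 16471 CPM in RP-6306 members and from 0 through 671 to 6048 in vehicle members. It exceeded the class II sum in 11 of 28 RP-6306 members and in 2 of 26 vehicle members.

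**Figure D5:**
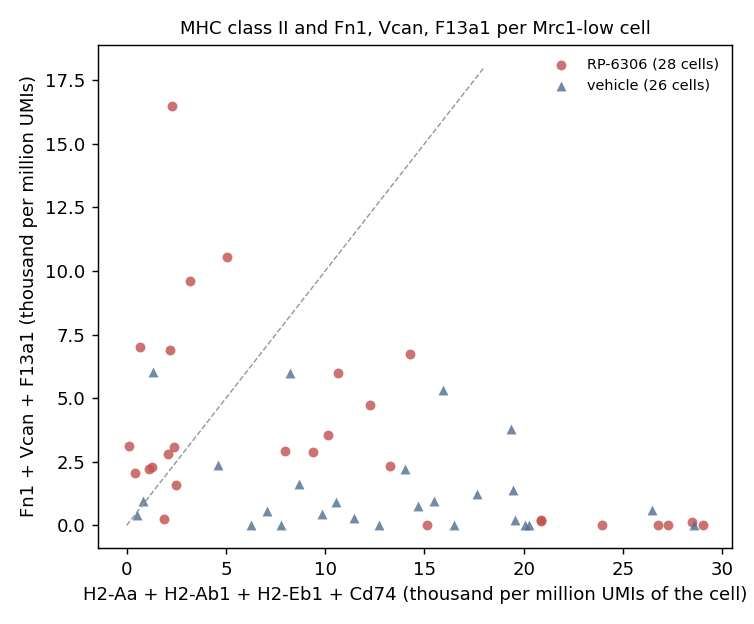
Each point is a member (circles RP-6306, triangles vehicle), with the summed class II and Cd74 UMIs on the x axis and the summed Fn1, Vcan and F13a1 UMIs on the y axis, both in CPM of the cell divided by 1000, and equality as the dashed line. Above the line lie 11 of 28 RP-6306 and 2 of 26 vehicle cells, and cells with the highest class II sums have almost no Fn1, Vcan or F13a1.

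Side by side with the other groups, the direction of the difference between the libraries varied from gene to gene, and members sided with the monocytes for some genes and with the other C1q-positive cells for others. Spp1 was at 1.44 in members and 2.05 in monocytes, but at -0.73 in Mrc1-high cells and -0.79 in cells with Cxcl9 or Cxcl10. Arg1 was at 0.66 and 0.51, against -0.59 and -0.77. Cd9 was at 1.26 and 0.88, against -0.32 and 0.12, with counting intervals that include 0 in these 2 groups. Fn1 was at 1.39 in members, 0.80 in monocytes and 0.54 in Mrc1-high cells, and at -0.44 in cells with Cxcl9 or Cxcl10. Other genes went the other way. Klf7 was at -1.10 in members, -0.36 in Mrc1-high cells and -0.68 in cells with Cxcl9 or Cxcl10, but at 0.44 in monocytes, and Bnip3, a mitophagy receptor induced by hypoxia, was at -0.82 in members and -0.45 in Mrc1-high cells, but at 0.47 in monocytes. Mmp12 was at -0.55 and -1.05 in Mrc1-high cells and cells with Cxcl9 or Cxcl10, and at 1.68 in monocytes. In members Mmp12 was at -0.28 with a counting interval that includes 0, and at 0.90 among those with at least 6 C1q UMIs, so it had no settled direction there. Nfat5 was at 1.18 in members and 0.66 in Mrc1-high cells, but at -0.17 in cells with Cxcl9 or Cxcl10 and -0.25 in monocytes. Cd38 was higher in RP-6306 in all 4 groups, at 1.92, 1.41, 1.05 and 0.87 in the order members, monocytes, Mrc1-high and Cxcl9 or Cxcl10. With 1 library per treatment the differences between groups were not tested, and a shift in the mix of cells that met the limits and a difference inside cells of 1 kind cannot be told apart here.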

How the data were processed

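Single-cell RNA was measured in 1 RP-6306 and 1 vehicle library. The authors deposited counts, whole UMI numbers per gene and barcode, not normalized (32285 genes, 33222 barcodes, 158073632 UMIs in the RP-6306 and 135415063 in the vehicle matrix). The submitters' processing notes list Cell Ranger 2.1.1 and mm10, with no role for either. Cell calling was not given in the sources used here.

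Cells needed at least 500 UMIs, 300 genes and at most 15% mitochondrial UMIs. The members and gene lists were chosen with earlier results of these data known. The other groups met the same Lyz2, receptor, lymphocyte and keratin limits: Mrc1-high cells had at least 2 UMIs of Mrc1 and fewer than 2 of Cxcl9 and Cxcl10, the chemokine group at least 2 of these, and C1q-low monocytes under 3 C1q UMIs, fewer than 2 of Cxcl9 and Cxcl10, at least 1 of Ly6c2 or Ccr2 and at most 1 of Csf3r, Cxcr2 and Retnlg. UMIs were summed per group and library and scaled to CPM, and log2 ratios used CPM + 1. Ratios have exact conditional binomial 95% intervals, computed without the pseudocount, and shares exact Clopper-Pearson intervals. Both cover counting error only and leave out the spread between cells.

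Named genes were the 12 highest and 12 lowest ratios of RP-6306 over vehicle and, for each other group, the 10 highest and 10 lowest by the smaller of both libraries' ratios. They needed 50 CPM and 50 UMIs on the higher side with no cell over 20% of those UMIs. From each list up to 4 genes that differed most were added, as was a short set of fixed markers, and other genes were picked after their values were seen. Some genes are not reported here. Scrublet called 0 RP-6306 and 1 vehicle cells, too few for 32976 cells to have worked, so removal of the top 6% of scores was an alternative. The libraries share 374 barcodes, among them those of 1 RP-6306 and 2 vehicle members, and 0 are members in both. The ratio step was run on simulated sums drawn without spread between cells or libraries. That run checks the calculation only, and cannot show how the intervals hold where single cells carry much of a gene. Software was Python 3.11.15 with scanpy 1.11.5, pandas 2.3.3, scipy 1.17.1, numpy 2.4.6, scikit-learn 1.9.0 and matplotlib 3.10.9.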

Additional observations from a re-analysis of the deposited data

Results flagged for a closer look

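The results below stand here because the difference between the libraries ran in opposite directions in members and in another myeloid group, with the counting intervals on opposite sides of 0 for single genes. None of these differences between groups was tested. The median log2 ratio, RP-6306 over vehicle, of 5 arginine, tryptophan and adenosine genes was 0.67 in members and that of 6 such genes -0.48 in cells with Cxcl9 or Cxcl10. Arg1 was at 0.66 in members, at -0.59 in Mrc1-high cells and at -0.77 in cells with Cxcl9 or Cxcl10. Spp1 was at 1.44 in members and at -0.73 and -0.79 in those groups. Fn1 was at 1.39 in members and at -0.44 in cells with Cxcl9 or Cxcl10. Klf7 was at -1.10 in members and at 0.44 in monocytes, and Nfat5, a transcription factor of osmotic stress, at 1.18 and -0.25. Pim1, a survival kinase, was at -0.71 in members and at 0.40 in Mrc1-high cells. Tm9sf3 was at -0.71 in members, at 0.42 in cells with Cxcl9 or Cxcl10 and at 0.29 in monocytes.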

How the results depend on the processing

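No paired analysis was possible because each group had 1 library. Of 602 values of single genes under the alternatives, 569 lay inside the counting interval of the value given, and of 267 list medians 231 kept their sign and moved by at most 0.2. Part of this agreement was fixed in advance. The limits of 100 and of 1 UMI per gene choose genes and leave the ratio of each gene as it was. A stricter mitochondrial limit removed no member, and removal by Scrublet score took 0 RP-6306 and 1 vehicle members. The counts of genes past 2-fold kept within 1.5 times of the values given in 42 of 56 comparisons. With at least 100 UMIs per gene the counts were 10 between the libraries, 31 against Mrc1-high cells, 24 against cells with Cxcl9 or Cxcl10 and 31 against monocytes. With at least 1 UMI per gene they were 4464, 1310, 1384 and 1224, and with cells thinned to 2000 UMIs they were 11, 8, 4 and 39, since fewer genes then had 50 UMIs. Against monocytes the count was 43 with a pseudocount of 10 CPM and 177 with the highest cell of each gene left out. In that last setting the highest cell was subtracted in each group while the group totals were kept. A single cell weighs more among 28 and 26 members than among 200 and 218 monocytes, so the setting lowers members more. The part of this in the count was not tested. With Mrc1 of 0 the vehicle share of members among C1q-positive macrophages was 16.2%. List medians changed sign in 17 comparisons over 8 lists, none of them a list whose median was above 0.2 in size, and 6 of the 17 came from scaling by gene ratios, which lowers all genes alike. Among single genes, members without Mrc1 gave F13a1 a log2 ratio of 2.15, Hilpda 2.58, H2-Aa -0.79 and Peak1 -0.40, and thinning gave Klf7 -2.38, Irak2 -2.31, Smchd1 -0.37 and Cd74 0.04. Leaving out barcodes that the libraries share, an alternative chosen after seeing the data, gave Fn1 a log2 ratio of 1.77. It also put the chemokine list median at 1.04 and that of the immediate early and dissociation stress list at 0.56. With 28 and 26 members, genes under about 50 UMIs could not be compared at this depth.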
